A study of Phyllostachys edulis with 2 samples.

Results

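Retrotransposon-derived transcripts of Moso bamboo (Phyllostachys edulis) buds were taken as the assembled transcripts whose best protein match carried a retrotransposon word in its description: retrotransposon, retroelement, reverse transcriptase, gag, gag-pol, polyprotein, integrase, Ty1, Ty3, copia or gypsy. Transcripts whose description also named a virus were left out. This gave 775 transcripts of 468 loci among 148492 transcripts of 85391 loci. By the subclass that the description named, 46 transcripts were Ty1-copia, 38 were Ty3-gypsy and 691 were unclassified. The choice used the wording of the protein match alone and no read count.

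The study sequenced RNA of rhizome lateral buds, collected underground and pooled, of wild type plants without a recorded treatment. The early shoot stage and the earlier germination stage each gave 1 library, so the differences below rest on a single pair of libraries and carry no p-value. The early shoot table held 7878826 reads and the germination table held 4481221 reads, and the libraries were scaled by their median ratio of 1.8. Pooled buds are a mixture of tissues, so fewer cells of a type and less RNA per cell cannot be told apart. A list of 28 transcripts of dividing cells and shoot meristem summed to 480 CPM in early shoot and 427 CPM in germination, and 37 green tissue transcripts summed to 529 CPM in early shoot and 571 CPM in germination. The part of these tissues in the retrotransposon values was not tested.

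Retrotransposons are mobile elements that copy themselves through an RNA, which reverse transcriptase turns into DNA and integrase inserts at another place in the genome. The long terminal repeat types fall into Ty1-copia and Ty3-gypsy elements, named after yeast and fruit fly elements, and both encode a gag structural protein and a pol polyprotein that is cut into protease, integrase, reverse transcriptase and RNase H. Such elements make up much of the genome of large-genome grasses, where most copies are damaged and are kept silent by small RNAs and DNA methylation. A transcript that matches such a protein can come from an intact element, from a damaged copy or from a host gene that contains a piece of one.

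Retrotransposon transcripts took the same small share of the reads at both stages. They held 23610 reads in early shoot, or 0.2997% of the library with an exact 95% interval from 0.2959% to 0.3035%, against 13275 reads in germination, or 0.2962% with an interval from 0.2912% to 0.3013%. The log2 ratio of the summed reads, early shoot over germination after scaling, was -0.02 (95% interval -0.05 to 0.01), and that of all transcripts together was -0.03. These intervals are Clopper-Pearson intervals and cover counting error only. Per transcript, the median log2 ratio was -0.11, against -0.10 over all transcripts, each with 1 read added to both counts.

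Most of the transcripts were short and low. Their median length was 304 bp, between 151 and 5597 bp, against 329 bp over all transcripts. The median RPKM was 3.46 in early shoot and 3.28 in germination, against 4.15 and 4.32 over all transcripts. No more than 10 reads over both libraries were found on 40.9% of them, against 35.9% of all transcripts. Few loci held a large part of the signal, since the 5 loci with the most reads took 36.4% of the retrotransposon reads in early shoot and 37.9% in germination, while 192 loci had no more than 10 reads in total. Without these 5 loci the sum had a log2 ratio of 0.02 (95% interval -0.02 to 0.06).

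**Figure D1:**
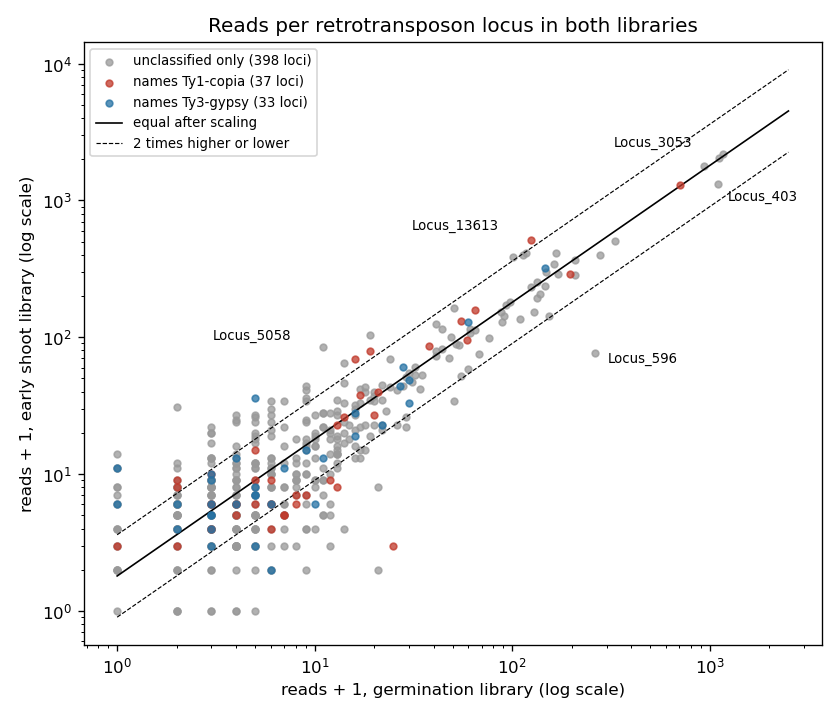
Reads plus 1 of each of the 468 retrotransposon loci in the early shoot library (vertical axis) and the germination library (horizontal axis), both on log scales, with 1 point per locus coloured by the subclass its descriptions name. The solid line marks equal levels after scaling by 1.8 and the dashed lines mark levels that differ by a log2 of 1. Locus_596 lies below the lower dashed line with 76 early shoot reads and 260 germination reads, whereas Locus_3053, the locus with the most reads, lies on the solid line.

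Stage differences of single transcripts were rare in this set. A transcript was called where the G-fold value, the bound nearest 0 of the log2 ratio at a posterior quantile of 0.01, lay beyond 1.0 and the RPKM was above 1.0 in both libraries. Of the 775 transcripts, 633 passed the RPKM cutoff. Of these, 1 transcript (0.158%) was called higher in early shoot, where 1.40% of all 120465 transcripts above the cutoff were called, and 2 (0.316%) were called higher in germination, where 3.77% of all were called. Counting every G-fold value above or below 0, 32 transcripts lay above (5.06%, against 12.0% of all) and 35 lay below (5.53%, against 13.5% of all). The 142 transcripts that did not pass the cutoff held 467 reads in early shoot and 212 reads in germination.

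A low number of reads leaves little room for a call, so the same counts were made at 100 reads or more over both libraries. Of 70 such retrotransposon transcripts, 0 were called higher in early shoot, against 4.29% of all transcripts of that depth. The 2 called higher in germination made 2.86%, against 7.74% of all. Values above 0 made 17.1% of them and values below 0 made 14.3%, against 29.6% and 25% of all.

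Summed per locus, the picture was the same. Of 468 loci, 419 passed the cutoff, of which 1 was called higher in early shoot (1.39% of all 68851 loci above the cutoff were) and 1 was called higher in germination (3.69% of all loci were). G-fold values lay above 0 in 27 loci and below 0 in 27 (6.44% each, against 10.1% and 12.7% of all loci). Of the 56 loci with 100 reads or more, 0 were called higher in early shoot, against 5.91% of all loci of that depth, and 1 was called higher in germination, against 10% of them. Among these 56 loci, the middle part of the log2 ratios, between their quartiles, ran from -0.27 to 0.24, narrower than the range from -0.50 to 0.61 over the 12983 loci of that depth in the whole table. A log2 ratio above 1 was found for 3 of the 56 loci (5.36%, against 13.4% of all loci of that depth), and a ratio below -1 for 1 of them (1.79%, against 14.1%). Because many loci of the full sum hold transcripts of ordinary genes, this background is not made of mobile elements alone.

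The locus called higher in germination was Locus_596, whose match is a retrotransposon protein described from Moso bamboo itself. It had 76 reads in early shoot and 260 reads in germination, or an RPKM of 5.97 against 35.9, with a log2 ratio of -2.62 (95% interval -3.01 to -2.25) and a G-fold value of -2.19. Both of its assembled transcripts were called. The 1616 bp transcript had 37 reads in early shoot and 147 in germination, and the 1608 bp transcript had 39 in early shoot and 113 in germination. Both forms were lower in early shoot, and the locus holds no other transcript.

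The transcript called higher in early shoot was transcript 17 of Locus_5058, of 832 bp, which also matches a Moso bamboo retrotransposon protein. It had 84 reads in early shoot and 10 reads in germination, or an RPKM of 12.8 against 2.68, with a log2 ratio of 2.10 with 1 read added (95% interval of the reads 1.27 to 3.33) and a G-fold value of 1.14. The remaining 21 transcripts of this locus went the other way as a sum, with 607 reads in early shoot and 832 reads in germination and a log2 ratio of the sum of -1.30 (95% interval -1.46 to -1.15). Of these, 20 have no protein match, and 4 were called higher in germination. The transcript with the retrotransposon match carries an assembly confidence of 0.051, and with the variance set to 2 times the mean its G-fold value was 0.73, short of a call.

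**Figure D2:**
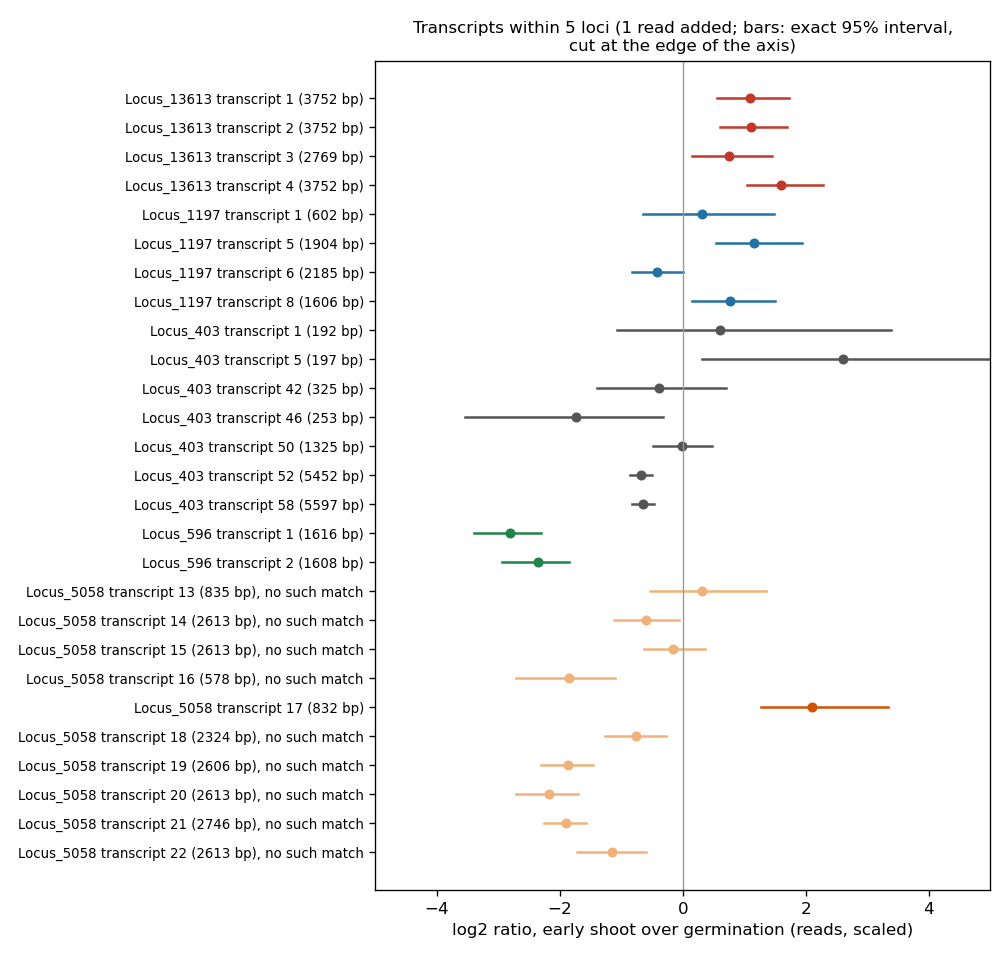
Log2 ratio, early shoot over germination, with 1 read added, of single transcripts within 5 loci (points) with exact 95% intervals (bars, cut at the edge of the axis); transcripts need 10 reads, or 50 reads in Locus_5058, to be shown. The 4 transcripts of Locus_13613 all lie above 0 and both transcripts of Locus_596 lie below -2, whereas transcript 17 of Locus_5058 stands at 2.10 on the opposite side from most transcripts of its locus.

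The retrotransposon loci with the most reads were nearly level between the stages. Locus_3053 had 2186 reads in early shoot and 1170 in germination on 8 transcripts that match a maize protein described with the SINE wording, which names short interspersed elements, mobile sequences that borrow the reverse transcriptase of others. These transcripts were 1831 to 2384 bp long, and whether they come from such an element or from a host gene was not tested. The log2 ratio of Locus_3053 was 0.05 (95% interval -0.05 to 0.16). The RPKM of its single transcripts lay between 10.3 and 21.0 in early shoot and between 10.6 and 19.0 in germination. Locus_1924 had 2028 early shoot and 1118 germination reads, with a log2 ratio of 0.01 (95% interval -0.09 to 0.12). Locus_1476 had 1778 reads in early shoot and 929 in germination, with a log2 ratio of 0.09 (95% interval -0.03 to 0.20). All 3 intervals hold 0. Locus_1476 and Locus_1924 share a match, the Moso bamboo entry ADB85424.1, whose 13 transcripts in 3 loci summed to 3810 reads in early shoot and 2109 reads in germination, a log2 ratio of 0.01.

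The fourth locus by reads was the exception among the 5 with the most. Locus_403, whose long transcripts match a rice gag-pol polyprotein, had 1312 reads in early shoot and 1101 in germination, with a log2 ratio of -0.60 (95% interval -0.71 to -0.48) and a G-fold value of -0.46, below 0 but not beyond the threshold. Its 5452 bp transcript had 590 reads in early shoot and 525 in germination, and its 5597 bp transcript, the longest of the set, had 559 in early shoot and 486 in germination. Their log2 ratios were -0.68 and -0.65. The 1325 bp gag-pol transcript of the locus had 104 reads in early shoot and 58 in germination and a log2 ratio of -0.02. Locus_403 was also the only locus with G-fold values on both sides of 0, with both long gag-pol transcripts and a 253 bp transcript (6 reads in early shoot and 12 in germination) below 0 and a 197 bp transcript (10 reads in early shoot and 0 in germination) above 0.

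The other loci among the 10 with the most reads had G-fold values no farther from 0 than 0.15, apart from the Ty1-copia locus Locus_13613 described below. Locus_281 had 1284 reads in early shoot and 706 in germination (log2 0.01), Locus_1660 had 368 early shoot and 207 germination reads (log2 -0.02), Locus_3223 had 501 early shoot and 330 germination reads (log2 -0.25), and Locus_4084 had 401 early shoot and 276 germination reads (log2 -0.31). Locus_7468, whose 5 transcripts match RIRE1, a copia-type element first known from a wild rice, had 410 reads in early shoot and 166 in germination, with a log2 ratio of 0.46 (95% interval 0.19 to 0.73).

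Of all 56 loci with 100 reads or more, 8 had a G-fold value above 0 and 11 had one below 0. This made 14.3% and 19.6% of them, against 35.7% and 30.2% of all loci of that depth. Above 0, the farthest were Locus_31627, a transcript of 718 bp with a maize retrotransposon match, at 102 reads in early shoot and 18 in germination (log2 1.66), Locus_13613 (log2 1.19) and Locus_7438, a polyprotein match at 384 early shoot and 100 germination reads (log2 1.09). Below 0, the farthest after Locus_596 were Locus_5330 at 141 reads in early shoot and 153 in germination (log2 -0.97), Locus_16636 at 51 early shoot and 54 germination reads (log2 -0.93) and Locus_33134 at 58 early shoot and 59 germination reads (log2 -0.87). These last 3 loci all match Moso bamboo retrotransposon proteins. Locus_31627, Locus_7438, Locus_5330, Locus_16636 and Locus_33134 were singled out after their values were seen.

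**Figure D3:**
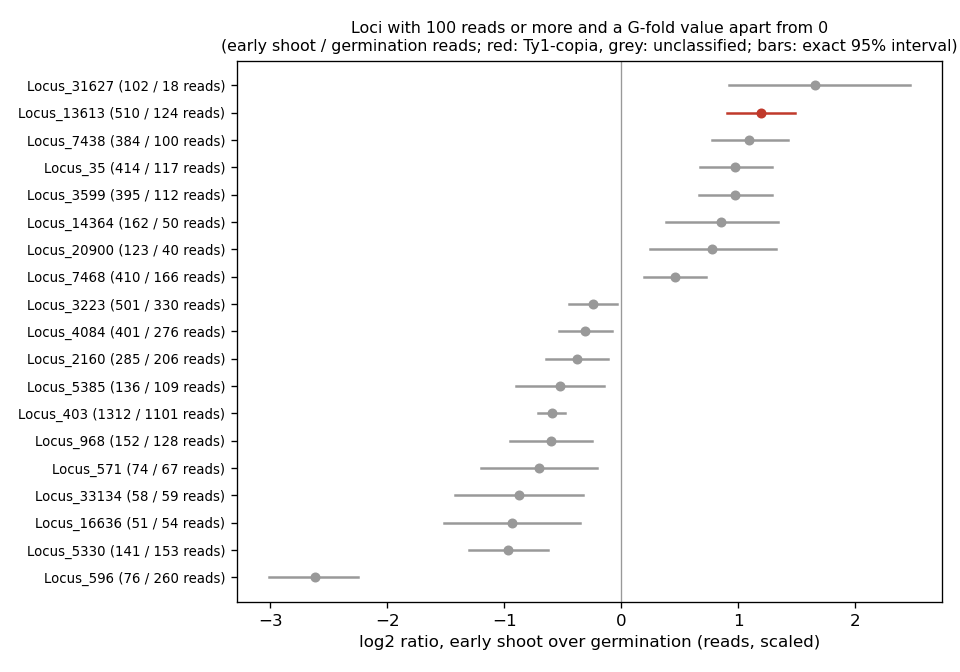
Log2 ratio of the summed reads, early shoot over germination, of the retrotransposon loci with 100 reads or more and a G-fold value other than 0 (points; red names Ty1-copia, grey is unclassified) with exact 95% intervals (bars) and the reads of both libraries beside each name, early shoot first. The 8 loci above 0 reach 1.66 at Locus_31627, and of the 11 loci below 0 Locus_596 stands apart at -2.62.

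The transcripts whose descriptions name Ty1-copia were higher in early shoot as a sum, and 1 locus carried most of the difference. Their 46 transcripts in 37 loci had 2403 reads in early shoot and 1143 in germination, with a log2 ratio of 0.22 (95% interval 0.12 to 0.33). Of the 43 transcripts above the RPKM cutoff, 0 were called in either direction, where 1.40% and 3.77% of all transcripts were called. Of them, 6 (14%, against 12.0% of all) had G-fold values above 0 and 2 (4.65%, against 13.5% of all) had values below 0. The median log2 ratio of the 46 transcripts was -0.01. Without Locus_13613 the sum was 1893 reads in early shoot and 1019 in germination and the log2 ratio was 0.05 (95% interval -0.07 to 0.16), whereas without Locus_281, the Ty1-copia locus with the most reads, it was 0.50. The RIRE1 matches, whose descriptions name no subclass, count as unclassified and are not in these sums. Their own log2 ratio was 0.41 (95% interval 0.17 to 0.66), with most reads in Locus_7468.

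Locus_13613 holds 4 transcripts that all match the same rice Ty1-copia protein, 3 of them 3752 bp long. The 3752 bp transcripts had 126, 146 and 151 reads in early shoot and 32, 37 and 27 reads in germination, and the 2769 bp transcript had 87 reads in early shoot and 28 in germination. All 4 were higher in early shoot after scaling, with G-fold values above 0. The locus as a whole had 510 reads in early shoot and 124 in germination, or an RPKM of 17.3 against 7.38, and a log2 ratio of 1.19 (95% interval 0.91 to 1.49). Its G-fold value of 0.86 fell short of the threshold of 1.0.

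Locus_281 was level between the stages. Its 3 long Ty1-copia transcripts, of 2508, 2490 and 1938 bp, had 559, 411 and 268 reads in early shoot and 309, 233 and 142 reads in germination. Their log2 ratios were 0.01, -0.03 and 0.06. Locus_27110, a single 715 bp transcript, had 131 reads in early shoot and 54 in germination and an interval from -0.04 to 0.92 that holds 0. Locus_1366, at 85 early shoot and 37 germination reads, likewise had an interval that holds 0. In 3 further loci that name Ty1-copia, most reads lay on retrotransposon matches that name no subclass. The Ty1-copia transcripts themselves had 19 reads in early shoot and 12 in germination in Locus_10486, where all matching transcripts had 94 in early shoot and 58 in germination. In Locus_6215 they had 5 reads in early shoot and 1 in germination, out of 290 in early shoot and 194 in germination. In Locus_13244 they had 3 reads in early shoot and 2 in germination, out of 156 in early shoot and 64 in germination.

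Locus_50278, a 1217 bp Ty1-copia transcript, and Locus_30247 stood higher in early shoot at a lower depth. Locus_50278 had 78 reads in early shoot and 18 in germination, or an RPKM of 8.13 against 3.30, with a log2 ratio of 1.27 (95% interval 0.51 to 2.10) and a G-fold value of 0.41. Locus_30247 had 68 reads in early shoot and 15 in germination on 2 Ty1-copia transcripts, with a log2 ratio of 1.33 (95% interval 0.51 to 2.25) and a G-fold value of 0.40. Locus_34673, a 391 bp Ty1-copia transcript, lay far on the other side, with 2 reads in early shoot and 24 in germination and a G-fold value of -2.23. Its RPKM was 0.65 in early shoot, under the cutoff, so it was not among the transcripts tested. Locus_30247 and Locus_34673 were singled out after their values were seen.

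Ty3-gypsy transcripts were few and low. Their 38 transcripts in 33 loci had 421 reads in early shoot and 242 in germination, with a log2 ratio of -0.05 (95% interval -0.28 to 0.18) and a median of -0.15. Of 34 above the cutoff, 0 were called in either direction, where 1.40% and 3.77% of all transcripts were called. G-fold values lay above 0 in 1 transcript and below 0 in 1 (2.94% each, against 12.0% and 13.5% of all). No Ty3-gypsy transcript had 100 reads, and the highest RPKM was 8.71 in early shoot and 9.19 in germination. At this depth, only large stage differences of single Ty3-gypsy transcripts were detectable.

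In the 8 loci with the most reads that name Ty3-gypsy, the Ty3-gypsy transcripts summed per locus had no interval apart from 0. In Locus_23452 they had 43 reads in early shoot and 26 in germination, and in Locus_29990 they had 27 in early shoot and 15 in germination. Locus_18127 had 48 reads in early shoot and 29 in germination, Locus_15861 had 32 in early shoot and 29 in germination, and Locus_28305 had 22 in early shoot and 21 in germination. In the remaining 3 loci most reads lay on matches that name no subclass. The Ty3-gypsy transcript of Locus_4838 had 21 reads in early shoot and 9 in germination, where all matching transcripts had 128 in early shoot and 59 in germination. That of Locus_15025 had 4 reads in early shoot and 1 in germination, out of 60 in early shoot and 27 in germination.

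That of Locus_1197 had 28 reads in early shoot and 12 in germination, out of 321 in early shoot and 146 in germination on 4 matching transcripts, and these transcripts differed in ratio. The 1904 bp transcript of Locus_1197, which names no subclass, had 96 reads in early shoot and 23 in germination (95% interval 0.55 to 1.94), whereas its 2185 bp transcript had 115 early shoot and 85 germination reads (95% interval -0.83 to 0.01).

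Among the Ty3-gypsy transcripts above the RPKM cutoff, the one with a G-fold value above 0 was Locus_56923, chosen after its values were seen. It had 35 reads in early shoot and 4 in germination over 510 bp, with a log2 ratio of 2.28 (95% interval 0.80 to 4.24) and a G-fold value of 0.63. The one with a value below 0 was transcript 1 of Locus_15861, with 11 reads in early shoot and 20 in germination. The other Ty3-gypsy transcript of that locus, of the same 680 bp, had 21 early shoot and 9 germination reads, and the locus sum had an interval from -1.48 to 0.07.

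Grouped by the wording of the match, the summed log2 ratios of the groups with over 100 reads ran from -0.26 to 0.41. The largest group matched retrotransposon proteins described from Moso bamboo, with 440 transcripts in 254 loci, 11564 reads in early shoot and 6785 in germination, and a log2 ratio of -0.08 (95% interval -0.12 to -0.04). This sum includes Locus_596, with 76 reads in early shoot and 260 in germination. Scaling by the upper quartile raises every log2 ratio by 0.08, as much as this sum lies below 0, so no direction is read from it. The 23 transcripts with gag-pol wording had 2396 early shoot and 1590 germination reads and a log2 ratio of -0.26 (95% interval -0.35 to -0.16), of which Locus_403 gave most reads. This value below 0 rests on AAO37957.1, the entry of the long Locus_403 transcripts, with 1301 early shoot and 1103 germination reads (log2 -0.61). The gag-pol entries AAG60200.1, ABI96971.1 and AAQ56285.1 lay at 0.04, 0.90 and 0.27, and those with fewer reads lay on both sides of 0. The 103 transcripts with polyprotein wording had 1754 reads in early shoot and 893 in germination (log2 0.13), and the 97 other retrotransposon protein matches had 2075 early shoot and 1087 germination reads (log2 0.08). The 9 RIRE1 transcripts had 465 early shoot and 194 germination reads and a log2 ratio of 0.41 (95% interval 0.17 to 0.66). Most of these reads, 410 in early shoot and 166 in germination, lay in Locus_7468. The median log2 ratio over the 4 RIRE1 loci was 0.06, between -0.11 and 0.45. The 6 retroelement transcripts had 305 reads in early shoot and 144 in germination (95% interval -0.06 to 0.53).

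Matches named only for reverse transcriptase, the enzyme that copies the element RNA into DNA, were almost without reads. Their 3 transcripts had 7 reads in early shoot and 8 in germination, and none exceeded 294 bp. A pair of transcripts described as a disease resistance polyprotein, which the wording brings in although the name points to a host protein, had 34 reads in early shoot and 19 in germination.

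**Figure D4:**
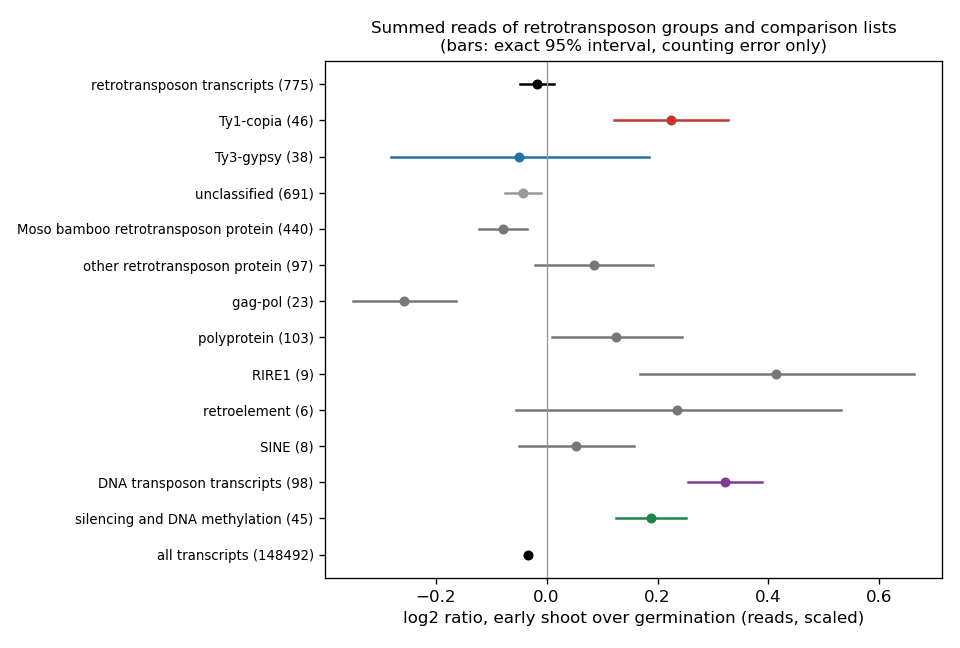
Log2 ratio of the summed reads, early shoot over germination after scaling (points), with exact 95% intervals that cover counting error only (bars), for all retrotransposon transcripts, their subclasses and wording groups, a pair of comparison lists and all transcripts, with the number of transcripts in brackets. The whole set lies at -0.02 beside all transcripts at -0.03, Ty1-copia lies at 0.22 and gag-pol at -0.26, and the DNA transposon list lies at 0.32. The gag-pol value rests on the reads of Locus_403.

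The matches of the 775 transcripts fell on 175 protein entries, 47 of them from Moso bamboo, and 75 entries were matched by more than 1 locus. Loci that share an entry can be copies of one element or pieces of one copy, and the tables do not tell these apart. The entry matched by most loci, ADB85257.1 of Moso bamboo, had 59 transcripts in 27 loci with 1570 reads in early shoot and 1255 in germination, a log2 ratio of -0.52 (95% interval -0.63 to -0.42). Without Locus_596 it had 1494 early shoot and 995 germination reads and a log2 ratio of -0.26 (95% interval -0.38 to -0.14), still below 0. The locus log2 ratios of this entry ran from -3.17 to 1.27 with a median of -0.31.

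The short transcripts of this same entry were among the most abundant per length. An RPKM above 50 in both libraries was found for 5 retrotransposon transcripts, between 231 and 401 bp long, of which 4 matched ADB85257.1. The highest, in Locus_3223, matched the other entry, ADB85424.1. It had 323 reads in early shoot and 209 in germination, or an RPKM of 113 against 128. The next, in Locus_4084, had an RPKM of 92.4 in early shoot and 112 in germination. The remaining ones, in Locus_3517 and Locus_2160, lay between 57.7 and 72.5 in early shoot and between 69.6 and 86.9 in germination. All 5 were lower in early shoot by log2 ratio, with values from -0.63 to -0.21, and the intervals of 3 of them hold 0.

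Other shared entries differed in direction. The 21 loci of ADB85414.1 had 540 reads in early shoot and 400 in germination, a log2 ratio of -0.42 (95% interval -0.60 to -0.22), although this is also the entry of the early shoot transcript of Locus_5058. The 23 loci of ADB85337.1 had 640 early shoot and 350 germination reads (log2 0.02) and the 19 loci of ADB85253.1 had 235 early shoot and 116 germination reads (log2 0.17), with intervals that hold 0. The 8 loci of ADB85357.1 had 153 reads in early shoot and 55 in germination, a log2 ratio of 0.63 (95% interval 0.17 to 1.10). The 4 loci of ADB85406.1 had 69 early shoot and 9 germination reads, a log2 ratio of 2.09 (95% interval 1.08 to 3.28) with locus values between 0.74 and 1.91. These last 2 entries were singled out after their values were seen.

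**Figure D5:**
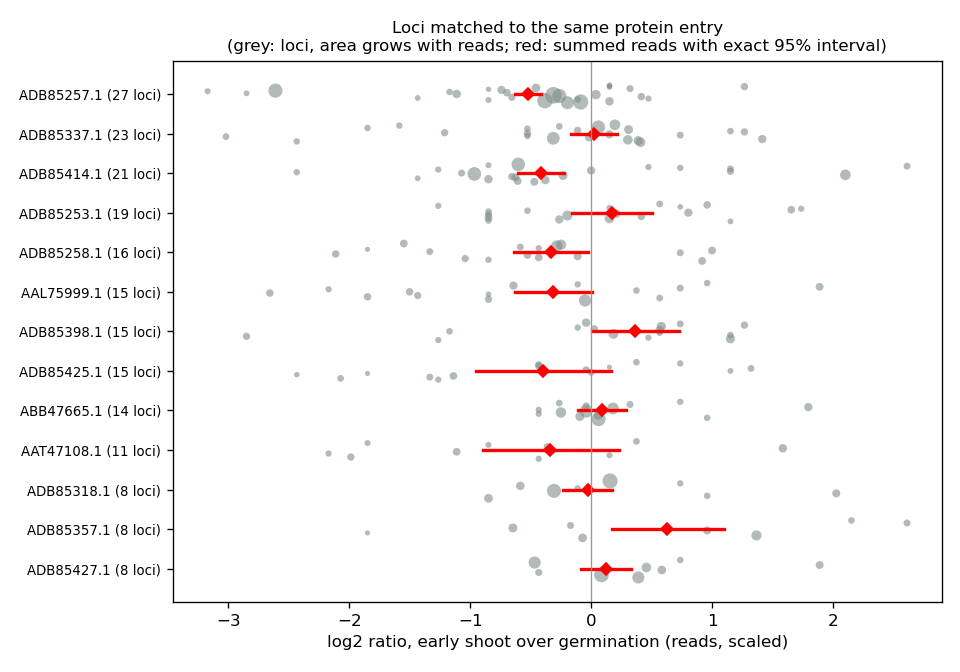
Log2 ratio, early shoot over germination, of each locus (grey points, with 1 read added and an area that grows with its reads) under the 13 protein entries matched by 8 loci or more, with the ratio of the summed reads (red diamonds) and its exact 95% interval (red bars). Loci of one entry spread over both sides of 0, and the summed ratios run from -0.52 for ADB85257.1 to 0.63 for ADB85357.1.

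Many retrotransposon matches were assembled into loci that also hold other transcripts. This was so for 125 of the 468 loci, and 23 of them had 100 reads or more on both the matching and the remaining transcripts. In 5 of the 23 the intervals of the log2 ratios lay apart, and the retrotransposon transcripts had the higher ratio in 3 of these loci and the lower ratio in 2. In Locus_35 the matching transcripts had 414 reads in early shoot and 117 in germination (log2 0.98), and the others had 5182 early shoot and 4625 germination reads (log2 -0.68). In Locus_281, which also holds a probable protein phosphatase 2C, the matching transcripts were level (log2 0.01) and the others had 4084 reads in early shoot and 3681 in germination (log2 -0.70). In Locus_7438 the matching transcript had a log2 ratio of 1.09 and the others had 361 early shoot and 233 germination reads (log2 -0.22).

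The opposite order was found in Locus_403 and Locus_705. In Locus_403 the matching transcripts had the log2 ratio of -0.60 given above, and the others had 2105 reads in early shoot and 1398 in germination (log2 -0.26). In Locus_705, which holds transcripts that match a callose synthase, an enzyme that makes a cell wall glucan, the matching polyprotein transcript had 236 early shoot and 146 germination reads (log2 -0.16) and the others had 5328 early shoot and 2354 germination reads (log2 0.33). In Locus_1924 both kinds were abundant. Besides the retrotransposon matches it holds 4 transcripts of a ubiquitin carboxyl-terminal hydrolase, an enzyme that removes ubiquitin from proteins, with 2299 reads in early shoot and 1387 in germination and a log2 ratio of -0.12 (95% interval -0.22 to -0.02). How the reads of such a locus were divided among its transcripts is not known.

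Transcripts found at one stage only were all low. No read was counted in early shoot for 27 of the 775 retrotransposon transcripts and in germination for 66, the less deeply sequenced library, and 13 of these had no read in either. Among all 148492 transcripts, 7992 had no read in early shoot and 13942 had none in germination, with 3384 at 0 in both. The highest count beside a zero in germination was 13 reads in early shoot, on the 237 bp transcript of Locus_85015. After scaling, this is 2.41-fold higher against the 3 counts that a zero allows. Next came 4 transcripts with 10 reads in early shoot and 0 in germination, among them transcript 5 of Locus_403 and the Ty3-gypsy transcript of Locus_80645, each 1.85-fold higher in the same way. These folds take the early shoot count as exact and are not lower limits. With counting error in both libraries, the G-fold value was 0.51 for Locus_85015 and 0.096 for each of the 4. On the other side, no transcript without reads in early shoot had more than 3 reads in germination. The 3 with that count, in Locus_45777, Locus_5679 and Locus_6397, stand at the floor and allow no fold.

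The RPKM cutoff kept 3 loci with a G-fold value beyond 1.0 out of the calls. Besides Locus_34673 these were Locus_10068, with 1 read in early shoot and 20 in germination (G-fold value -2.31), and Locus_60286, with 30 early shoot and 1 germination reads (G-fold value 1.24). Each is a single transcript with 31 reads or fewer, and they were singled out after their values were seen.

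By length, the shortest retrotransposon transcripts had the lowest sum. The same sums were not taken over all transcripts of these lengths. The 380 transcripts under 300 bp had 2653 reads in early shoot and 1653 in germination, with a log2 ratio of -0.17 (95% interval -0.25 to -0.08). The 293 transcripts of at least 300 but under 1000 bp had 6948 early shoot and 3798 germination reads (log2 0.02). The 102 transcripts of 1000 bp or longer, in 36 loci, held 59.3% of the retrotransposon reads in early shoot and 58.9% in germination, with a log2 ratio of -0.01 (95% interval -0.05 to 0.03).

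Transcripts with transposon wording but no retrotransposon word, listed as DNA transposons, summed higher in early shoot than the retrotransposon transcripts did. DNA transposons are the other class of mobile elements and move as DNA by a transposase. Many descriptions in this list say only putative transposon protein and do not name the class. The list of 98 transcripts in 53 loci had 5870 reads in early shoot and 2610 in germination, a log2 ratio of 0.32 (95% interval 0.25 to 0.39). This interval lay apart from that of the retrotransposons at -0.05 to 0.01. The median log2 ratio of the list was 0.15, against -0.11 for the retrotransposons and -0.10 over all transcripts. Of 94 above the cutoff, 1 was called higher in early shoot (1.06%, against 1.40% of all) and 0 were called higher in germination (against 3.77% of all), with 13 values above 0 (13.8%, against 12.0% of all) and 2 below 0 (2.13%, against 13.5% of all). Several of the values above 0 came from transcripts of Locus_4131. Summed per locus, 8 of the 53 loci had a G-fold value above 0 and 3 had one below 0, where 10.1% and 12.7% of all loci above the cutoff did.

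Transcripts matched by name to silencing, DNA methylation and chromatin proteins had reads at both stages. Whether the listed members act on retrotransposons was not tested. The list of 45 transcripts in 23 loci, with argonautes, dicers, RNA-dependent RNA polymerases, DNA methyltransferases, SNF2 remodelers and histone deacetylases, had 6229 reads in early shoot and 3036 in germination, a log2 ratio of 0.19 (95% interval 0.13 to 0.25) and a median of 0.39. Without the AGO1B and AGO12 loci the list had 3387 reads in early shoot and 2012 in germination and a log2 ratio of -0.10 (95% interval -0.18 to -0.02). The direction of the sum thus rests on these loci, whereas the median without them was 0.13, still above 0. Of 44 above the cutoff, 0 were called higher in early shoot (against 1.40% of all) and 1 was called higher in germination (2.27%, against 3.77% of all), with 10 values above 0 (22.7%, against 12.0% of all) and 6 below (13.6%, against 13.5% of all). Summed per locus, 6 of the 23 loci had a G-fold value above 0 and 5 had one below 0. Of all loci above the cutoff, 10.1% lay above 0 and 12.7% below 0. Of those with 100 reads or more, 35.7% lay above 0 and 30.2% below 0. The locus matched to rice AGO1B, an argonaute that cuts RNA guided by small RNAs, had 1797 reads in early shoot and 647 in germination (log2 0.63, G-fold value 0.47). The locus matched to rice AGO12 had 1045 early shoot and 377 germination reads (log2 0.62). The locus matched to the cytosine methyltransferase Zmet3 had 515 early shoot and 207 germination reads (log2 0.47). On the other side, a locus matched to a rice SNF2 domain protein, Locus_1251, had 728 reads in early shoot and 510 in germination (log2 -0.33), and a locus matched to a barley histone deacetylase of the RPD3/HDA1 type, Locus_13932, had 264 in early shoot and 213 in germination (log2 -0.54). The transcript called higher in germination matches another cytosine-5 DNA methyltransferase, an enzyme class that adds the methyl mark on DNA, with 57 reads in early shoot and 102 in germination (log2 -1.69, G-fold value -1.14).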

How the data were processed

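Moso bamboo rhizome lateral buds gave 1 RNA library per stage. The authors deposited raw counts for each assembled transcript and an RPKM computed from count, length and table total, beside a best protein match. Mapping with TopHat2 2.0.8b and gene models by Cufflinks 2.2.1 are named in the submitters' processing notes, and the study kept 1 position per read, so that reads of near-identical copies cannot be assigned with certainty. The assembler behind the transcript names, the counting program and strand use are not given in the sources used here.

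Tables were read with pandas 2.3.3, NumPy 2.4.6 and SciPy 1.17.1 under Python 3.11.15. The G-fold value is modelled on the Gfold program and was computed without it, from a beta posterior with 1 added to each count, as the 0.01 quantile of the log2 ratio nearest 0, and set to 0 if the quantiles straddle it. For a single transcript, the log2 ratio was taken after adding 1 read to both libraries, and sums, loci included, were taken as they are. In medians and quartiles over loci and in the locus values per protein entry, 1 read was added. The RPKM of a locus uses its summed reads and longest matching transcript. The background over loci sums all transcripts of each locus. Floors are 3 counts per library. Intervals are Clopper-Pearson at 95%, and for reads amplified by PCR without molecular identifiers they cover counting error only.

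The members and lists were chosen with earlier results of these data known. Named loci were the 10 with the most reads, the 8 of each named subclass with the most reads, every called locus, loci with G-fold values on both sides of 0 and the most abundant transcripts at 0 in 1 library. DNA transposons were found by transposon wording with hAT, CACTA and MULE as whole words, and silencing proteins by name. Alternatives were other scalings (TMM by edgeR 4.0.16 under R 4.3.3), quantile, threshold, cutoffs, depth, variance and the unit summed. The computation was tested on simulated data.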

Additional observations from a re-analysis of the deposited data

Results flagged for a closer look

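Transcripts left out because their match names a virus held a signal of their own. There were 14 such polyprotein transcripts in 13 loci, with 824 reads in early shoot and 68 reads in germination, a log2 ratio of 2.75 (95% interval 2.39 to 3.13, counting error only). The retrotransposon and DNA transposon lists above do not hold them, but the table totals, the scaling and the values over all transcripts do. With 1 library per stage, the difference of these virus matches rests on a single pair of libraries.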

How the results depend on the processing

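No paired analysis was possible because each stage has 1 library. For the same reason no replicate could be left out. The scalings gave a ratio of 1.76 by table totals or TMM and 1.70 by the upper quartile, which raises every log2 ratio by 0.03, 0.03 and 0.08 over the main scaling. Transcripts called higher in early shoot, 1 in the report, were 2 by table totals, TMM, no RPKM cutoff, a cutoff in at least 1 library or thinning to the germination total, 3 by the upper quartile, 5 at a quantile of 0.05, 50 by the plain log2 ratio, and 0 at a threshold of 2.0, at 100 reads in place of the cutoff or at a variance of 2 times the mean. Transcripts called higher in germination, 2 in the report, were 4 at a quantile of 0.05, without a cutoff or with it in at least 1 library, 81 by the plain log2 ratio, and 1 at a threshold of 2.0 or with the most abundant transcript of each locus. Loci called higher in early shoot, 1 in the report, were 3 at a quantile of 0.05, 40 by the plain ratio, 2 with either looser cutoff, and 0 at a threshold of 2.0, at 100 reads or at a variance of 2 times the mean. Loci called higher in germination, 1 in the report, were 3 at a quantile of 0.05 or with either looser cutoff, 64 by the plain ratio and 2 with all transcripts of a locus summed. The plain ratio takes no account of counting error, and the cause of the other changes was not tested. The 2 loci of the full sum were Locus_596 and Locus_273, whose 81 transcripts include 1 retrotransposon match with 13 reads in early shoot and 12 in germination. In that sum the early shoot call passed to Locus_39161, with 56 reads in early shoot and 6 in germination, and Locus_5058 was not called.

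The summed log2 ratio of all retrotransposon transcripts, -0.02, was 0.0166 by table totals, 0.0145 by TMM and 0.0652 by the upper quartile, and that of the unclassified ones, -0.04, was -0.00823 by table totals and 0.0403 by the upper quartile, so neither sum has a direction that holds across scalings. That of Ty1-copia was 0.50 without Locus_281, its locus with the most reads. The share of the reads was 0.2719% in early shoot and 0.2701% in germination without Locus_3053, and 0.277% in early shoot and 0.2759% in germination without the words integrase and polyprotein. Chosen after the data were seen, leaving out Locus_596 gave -0.26 for ADB85257.1, leaving out Locus_13613 gave 0.05 for Ty1-copia, and leaving out the AGO1B and AGO12 loci turned the silencing list, at 0.19, to -0.10. Locus_13613 passed the threshold by the plain ratio, at 1.18. Of the settings that bear on calls and sums, 33 left their result as it was and 39 moved it. Depth is a limit for both units, since 40.9% of the transcripts and 192 of the 468 loci have 10 or fewer reads.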
